A study of Mus musculus with 10 samples.

Results

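The genes for making cholesterol and fatty acids were compared between leukaemia cells grown in mice with a syngeneic transplant and cells of the same leukaemia grown in mice with an allogeneic transplant. They were named as a list of 29 genes, chosen by function and not by their values, of which 28 were measured among 18193 genes in all. The sterol list held 21 genes, 20 of them measured, and the fatty acid list held 8, all measured. The expression of Acat2 was not analysed here, but its promoter is among those counted below. For a gene with several probe sets, the one with the highest average signal was used.

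NSTY is an acute lymphoblastic leukaemia (ALL) on a C57BL/6 background that carries the human p210 bcr/abl fusion gene and a deletion in the Ink4a/Arf locus, and both groups received it. Recipients in both groups were C57BL/6 mice prepared with total body irradiation and 5-fluorouracil, and the leukaemia was infused together with marrow and spleen cells. In the syngeneic group (5 animals) these cells came from C57BL/6 donors, and in the allogeneic group (5 animals) they came from C3.SW donors. Leukaemia cells were sorted and passed into newly transplanted animals at intervals of 2 to 3 weeks, and after 3 serial transplants they were sorted from bone marrow on a green fluorescent protein marker into Trizol, 1 array being hybridised per animal. The sources used here give neither the age of the animals nor whether those of a group drew on leukaemia from 1 earlier recipient. One leukaemia was studied, and every p-value below rests on the spread among these animals, not among leukaemias.

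Cells make cholesterol from acetyl-CoA through mevalonate, the isoprenoid diphosphates, squalene and lanosterol, and they make fatty acids from the same acetyl-CoA through malonyl-CoA. The transcription factors SREBP2 (Srebf2) and SREBP1 (Srebf1) are held in the endoplasmic reticulum with their escort Scap while sterols are plentiful, through the Insig proteins, and are cut and released to the nucleus when sterols run low. SREBP2 acts mostly on sterol genes and SREBP1 mostly on fatty acid genes. Interferon is known, mainly from macrophages, to lower sterol synthesis, in part through 25-hydroxycholesterol made by the enzyme Ch25h. Dividing leukaemia cells need both kinds of lipid for new membrane.

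Stretches of promoter sequence are shown for 4 genes, because shared factors are why these genes are read as a list: the only match to the sterol element searched, 2 sterol genes with low values below, and the fatty acid synthase as a gene of the other list. A window from 250 bases before to 50 after the gene's start was on hand from RefSeq (build GRCm38.p6) for 23 of the 29 genes, matched by symbol. In Hmgcs1 (chr13:119690189-119690247, plus strand) the capitals mark a match to TCACNCCAC, a form of the sterol regulatory element that SREBPs bind. In Idi1 (chr13:8885567-8885621, plus strand), Lss (chr10:76531518-76531572, plus strand) and Fasn (chr11:120824577-120824631, minus strand) they mark the match nearest the start to CCAAT, the box bound by the SREBP partner NF-Y, here on the opposite strand and so written ATTGG.
Hmgcs1: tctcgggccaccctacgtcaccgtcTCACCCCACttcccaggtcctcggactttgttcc
Idi1: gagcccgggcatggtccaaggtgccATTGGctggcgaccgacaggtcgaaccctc
Lss: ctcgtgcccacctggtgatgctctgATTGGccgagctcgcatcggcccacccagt
Fasn: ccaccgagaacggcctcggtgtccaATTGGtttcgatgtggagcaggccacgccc
The Hmgcs1 element began at position -137 relative to the start. Searched on both strands, TCACNCCAC was found in 1 of 17 sterol gene promoters (5.88%) and in 0 of 6 fatty acid gene promoters, against 1.44% of the 27025 genes with a window. CCAAT was found in 15 of 17 sterol (88.2%) and 4 of 6 fatty acid promoters (66.7%), against 41.1% of all. The box GGGCGG, which Sp1 binds, was found in 16 of 17 sterol (94.1%) and 2 of 6 fatty acid promoters (33.3%), against 38.2% of all. These are matches of letters, not measured binding, and 1 exact form of the sterol element was searched.

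The sterol and fatty acid genes were well expressed in both groups, and no member passed the test between them. All 28 measured genes stood above the background limit on all 10 arrays, the limit being the 95th percentile of control probe sets for bacterial transcripts on each array. With limma and Benjamini-Hochberg adjustment over all genes, 0 of 28 were called at an adjusted p under 0.05, where 106 of 18193 genes (0.583%) were called in either direction. At an unadjusted p under 0.05, 2 of 28 were lower in allogeneic animals (Hmgcs1 and Elovl6), against 7.40% of all genes, and 1 of 28 was higher (Scd2), against 9.47%. In 0 of 28 genes did the groups fail to overlap, against 4.83% of all genes. The difference, allogeneic minus syngeneic on the log2 scale, was positive for 12 genes and negative for 16.

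The 95% confidence intervals, which are not adjusted for the number of genes tested, show how closely these 10 arrays fix each difference. They do not give the size needed for a call, since Hmgcs1, Elovl6 and Scd2 had intervals without 0 and were not called. In 23 of the 28 genes the whole interval lay within 1 log2 unit, a doubling or halving, of no difference, and in 7 it lay within 0.5. The 5 that reached past 1 log2 unit were Fdps, Fdft1, Lss, Tm7sf2 and Scd2. They were not the 5 widest, since Mvk, Scd1 and Mvd had wider intervals than Fdft1 and Scd2 but stayed within the bound. Precision is limited by the number of arrays. In sorted bulk cells, fewer cells of a type and less RNA per cell cannot be told apart.

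**Figure D1:**
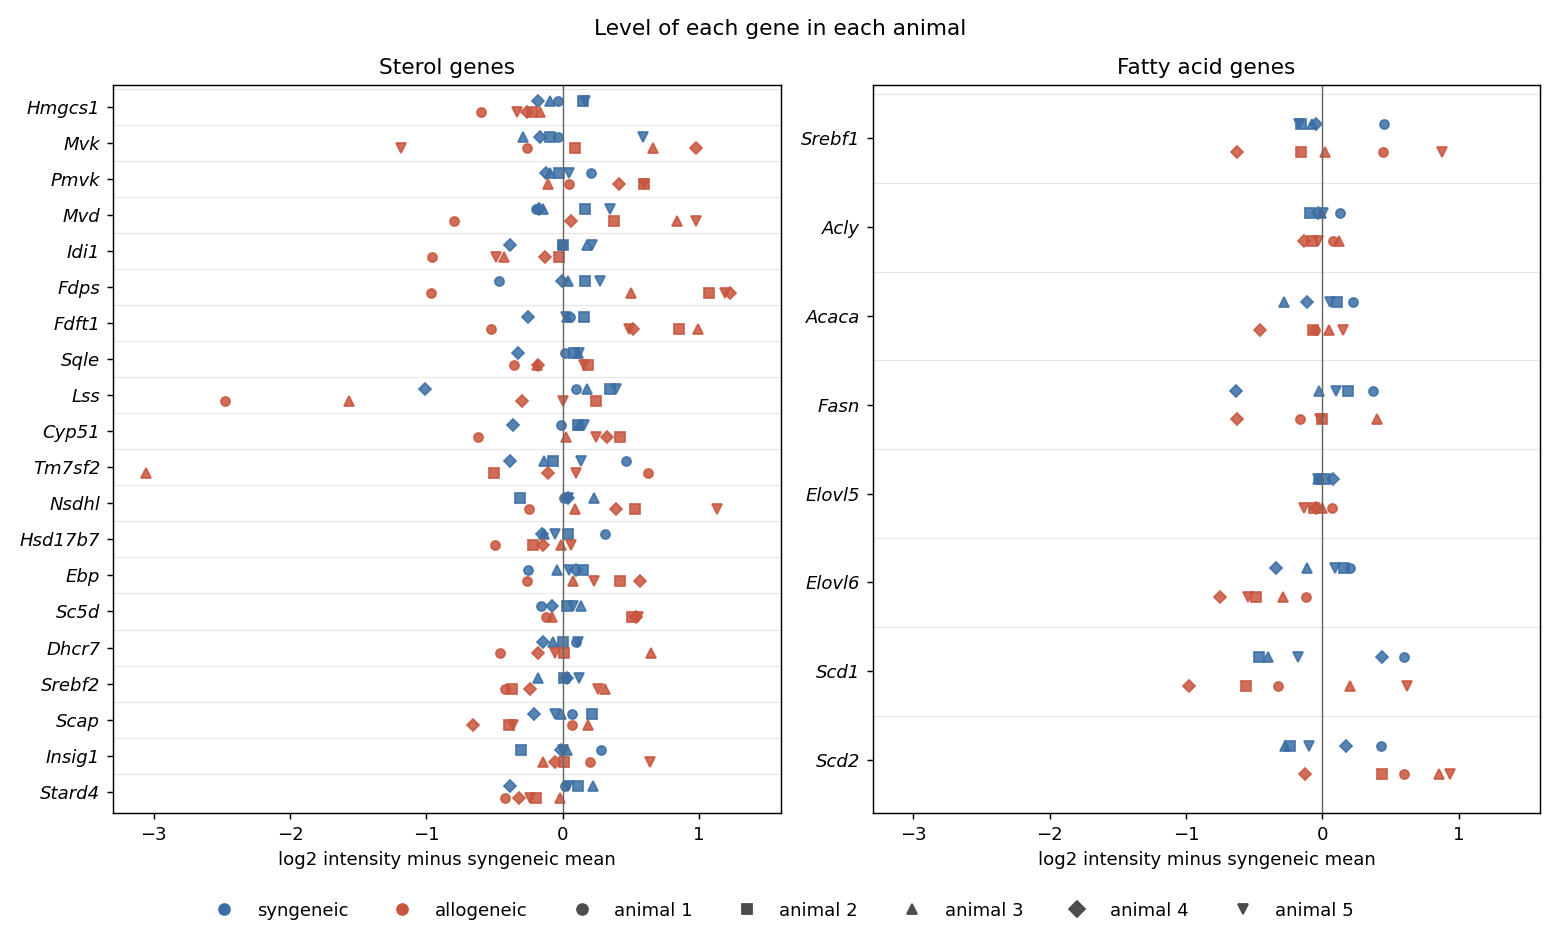
Log2 intensity of each of 20 sterol genes (left) and 8 fatty acid genes (right) in each of 10 animals, as the deviation from the mean of the 5 syngeneic animals. Blue points are syngeneic and red points allogeneic animals, and the shape gives the animal's number. The groups overlap in every gene, and the red circle (allogeneic animal 1) is the lowest allogeneic point in 15 of the 20 sterol genes.

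The first steps, from acetyl-CoA to the isoprenoid diphosphates, split in direction. Hmgcs1, the synthase that makes HMG-CoA, lies on chromosome 13 at 119690351 to 119708260. Its log2 intensity was 11.92, 12.10, 11.86, 11.78 and 12.12 in syngeneic animals 1 to 5 and 11.36, 11.73, 11.79, 11.70 and 11.62 in allogeneic animals 1 to 5. Only the lowest syngeneic value fell inside the allogeneic range, and the difference was -0.32 ± 0.12 (SE, n = 5 per group), with a 95% interval of -0.59 to -0.04 and a limma adjusted p of 0.236. The other 4 Hmgcs1 probe sets, on the same RNA, gave differences of -0.36, -0.07, -0.02 and -0.01. The -0.36 came from the weakest of them, which averaged 6.10 in syngeneic and 5.74 in allogeneic animals.

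Idi1, the isomerase that makes the reactive isoprenoid unit, had the other low value among these steps. It read 10.09, 10.10, 10.27, 9.70 and 10.30 in syngeneic animals and 9.13, 10.06, 9.66, 9.96 and 9.60 in allogeneic animals. The groups overlapped through syngeneic animal 4, and the difference was -0.41 (95% interval -0.84 to 0.02, adjusted p = 0.320).

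Fdps, the synthase that joins isoprenoid units into farnesyl diphosphate (chromosome 3, 89093588 to 89101967), was instead higher in most allogeneic animals. It read 8.26, 8.89, 8.76, 8.72 and 8.99 in syngeneic animals and 7.76, 9.80, 9.22, 9.95 and 9.91 in allogeneic animals. Allogeneic animals 2 to 5 were all above the syngeneic range and allogeneic animal 1 was below it. Over all 10 arrays the difference was 0.61 ± 0.40 (SE), a 1.52-fold difference with an interval of -0.28 to 1.49 and an adjusted p of 0.466.

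The kinases and the decarboxylase of these steps did not pass either. Pmvk, which adds the second phosphate to mevalonate, averaged 9.14 ± 0.13 (SD, n = 5) in syngeneic and 9.45 ± 0.32 in allogeneic animals, a difference of 0.31 (adjusted p = 0.373). Mvd, the decarboxylase, ran from 7.39 to 7.93 in syngeneic and from 6.78 to 8.56 in allogeneic animals (difference 0.29, adjusted p = 0.675). Mvk, the first kinase, ran from 7.30 to 8.18 and from 6.41 to 8.57, so its allogeneic range took in the whole syngeneic one (difference 0.06, interval -0.78 to 0.89). A second Mvk probe set above the limit on all 10 arrays gave 0.42. It read allogeneic animal 5 as the highest of all animals (7.46), where the first read that animal as the lowest (6.41).

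From squalene to cholesterol, 5 of 10 differences were positive and 5 negative. Fdft1, squalene synthase and the first enzyme given over to sterols (chromosome 14, 63145150 to 63181687), read 9.20, 9.31, 9.18, 8.90 and 9.18 in syngeneic and 8.63, 10.01, 10.15, 9.67 and 9.64 in allogeneic animals. As with Fdps, allogeneic animals 2 to 5 were above every syngeneic value and allogeneic animal 1 below them. The difference over all arrays was 0.46 ± 0.26 (SE, interval -0.12 to 1.04, adjusted p = 0.399), and 2 further Fdft1 probe sets gave 0.35 and 0.48.

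Lss, lanosterol synthase, which closes the sterol rings, had the lowest difference of all members. It read 7.84, 8.09, 7.92, 6.73 and 8.14 in syngeneic and 5.26, 7.99, 6.17, 7.44 and 7.75 in allogeneic animals. The low values belonged to allogeneic animals 1 and 3 and syngeneic animal 4, and the difference was -0.82 ± 0.53 (SE, interval -2.0 to 0.36, adjusted p = 0.458). The other Lss probe sets gave -1.01 and -0.64 from the same arrays. With allogeneic animals 1, 3 and 4 left out together, the Lss difference was 0.13 (adjusted p = 0.868).

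Tm7sf2, a sterol reductase, was uneven in another way: allogeneic animal 3 stood at 4.73 while the other 9 animals lay between 7.28 and 8.41. Its difference of -0.59 became 0.03 without that animal. The remaining enzymes had smaller differences. Nsdhl, a decarboxylating sterol dehydrogenase, differed by 0.38 (adjusted p = 0.447), Sc5d, a sterol desaturase, by 0.28 (adjusted p = 0.435) and Ebp, the sterol isomerase, by 0.21 (adjusted p = 0.559). A second Sc5d probe set above the limit on all 10 arrays gave -0.24, and the mean over Sc5d probe sets gave -0.10.

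Sqle, the squalene epoxidase and a rate-limiting step, differed by -0.08 with an interval of -0.41 to 0.25. Hsd17b7, a ketosteroid reductase of the pathway, differed by -0.16 (interval -0.48 to 0.15). Cyp51, the lanosterol demethylase, differed by 0.08 (interval -0.38 to 0.54), although its other probe sets gave -0.21 and -0.46. Dhcr7, which makes cholesterol in the last step of one branch, averaged 10.90 in syngeneic and 10.89 in allogeneic animals, with allogeneic SD 0.41 against 0.11.

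Of the 4 genes of control and transport 0 passed the test. Srebf2, which encodes SREBP2, read 10.01, 10.01, 9.81, 10.02 and 10.11 in syngeneic and 9.57, 9.62, 10.31, 9.76 and 10.25 in allogeneic animals. Its difference was -0.09 (interval -0.47 to 0.29, adjusted p = 0.823), and allogeneic values fell on both sides of the syngeneic range. Insig1, the anchor that is itself a sterol-repressed SREBP target, differed by 0.13 (interval -0.25 to 0.51). Scap, the escort, differed by -0.23 (interval -0.62 to 0.16), and Stard4, a carrier of cholesterol between membranes, by -0.24 (interval -0.55 to 0.07). The direction of Stard4 depended on the probe set, since another above the limit on all 10 arrays gave 0.48 and the mean over its probe sets gave 0.053. SREBPs are activated by cutting of the protein, which an mRNA array does not read.

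**Figure D2:**
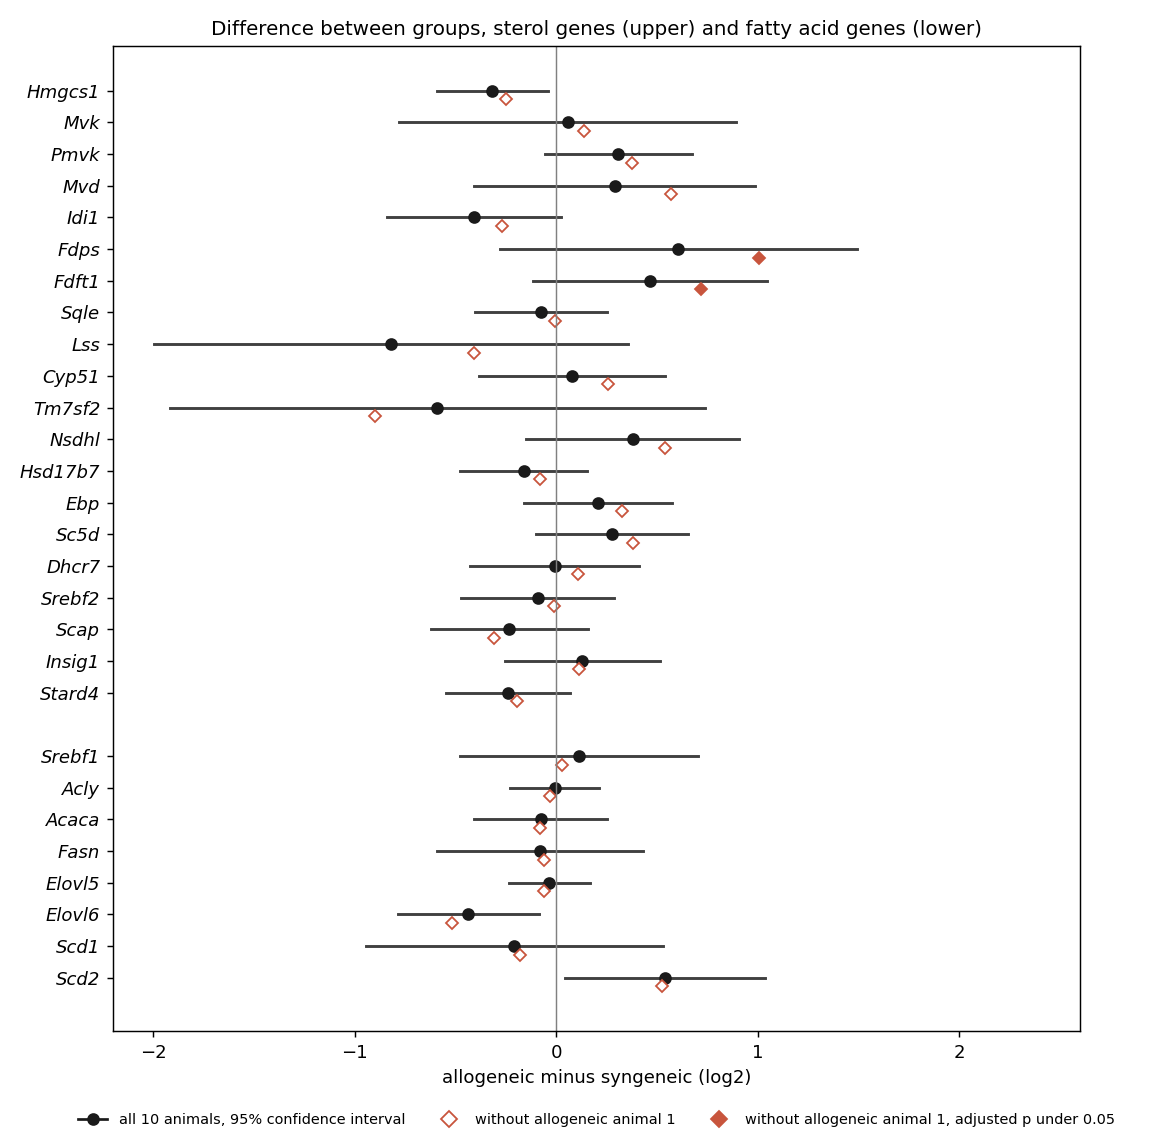
Difference between allogeneic and syngeneic animals (x axis, log2) for each gene. Black points and lines give the estimate and 95% confidence interval over all 10 animals, and red diamonds give the estimate without allogeneic animal 1, filled where its adjusted p was under 0.05. The intervals of Hmgcs1, Elovl6 and Scd2 leave out 0, and Fdps and Fdft1 have filled diamonds.

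The level of the sterol genes as a list varied between animals within each group. In each animal the median of the 20 genes, relative to the syngeneic mean, was 0.02, 0.06, 0.01, -0.17 and 0.11 in syngeneic and -0.42, 0.14, 0.01, -0.08 and 0.19 in allogeneic animals. The median difference over the 20 genes was 0.02, against 0.01 over all genes. Allogeneic animal 1 therefore lay below all other animals, and the other 4 allogeneic animals lay near the syngeneic ones.

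Allogeneic animal 1 had the lowest value of its group in 15 of the 20 sterol genes (75%), where it was lowest for 33.8% of the 10455 genes above the limit on all arrays. In 13 of the 20 it was below all 5 syngeneic animals. From squalene to cholesterol it was lowest in 9 of 10 genes, Tm7sf2 being the exception. Syngeneic animal 4 was likewise lowest of its group in 12 of 20 (60%), against 31.5% of those 10455 genes, and syngeneic animal 5 was highest in 10 of 20, against 14.3% of them.

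Markers of other cell types were also low in allogeneic animal 1, though not all of them. For macrophages and monocytes, 18 markers were measured, and their median was -0.39 in that animal, against -0.07 to 0.06 in the syngeneic animals and 0.40, 0.06, 0.37 and 0.42 in allogeneic animals 2 to 5. C1qb, a complement gene of macrophages, stood at 2.73 there and between 6.60 and 9.04 in the other 9 animals, and Lyz2, lysozyme of macrophages and granulocytes, stood at 5.23 there and between 7.74 and 9.46 in the others. Other markers of that list went the other way, Mpeg1 (13.14) and Ctss (13.47) being at their highest of all 10 animals there. That animal was lowest of its group in 9 of the 18 macrophage markers (50%) and in 8 of 11 granulocyte markers (72.7%). It was so in 33.8% of the 10455 genes above the limit on all arrays. The granulocyte median there was -0.57. The median there was -0.66 for 6 megakaryocyte and platelet markers and -0.50 for 8 mature B and plasma cell markers. For granulocytes and these lists, in that order, the lowest syngeneic medians were -0.17, -0.31 and -0.17. Allogeneic animal 3 was lower still for the mature B and plasma cell list, at -0.57. Other lists lay within or above the syngeneic range in allogeneic animal 1. Medians there were -0.07 for T cells, -0.02 for erythroid cells, 0.52 for natural killer cells, 0.28 for dendritic cells and 0.24 for stroma and endothelium. Of the 18 macrophage markers 15 were above the limit on at least 1 array, and Cx3cr1, Itgam and Cd14 were above it on none. The array of allogeneic animal 1, with those of allogeneic animals 3 and 4, also had a raised lower quartile of deposited intensity (18.7 to 19.5, against 13.8 to 14.4 on the other 7). The part of the markers or of the raised quartile in the sterol values was not tested.

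Leaving out allogeneic animal 1 brought 2 of the 20 sterol genes past the threshold, both higher in allogeneic animals, where 1.99% of all genes were then called higher. The difference was 1.01 ± 0.20 (SE, adjusted p = 0.0367) for Fdps and 0.72 ± 0.15 (adjusted p = 0.0371) for Fdft1. With all 10 animals the adjusted p-values were 0.466 and 0.399. Allogeneic animal 1 held the only allogeneic value below the syngeneic range in both genes, so leaving it out removed what opposed a rise. The lower p-values rest on that choice, made on the same values, and are no separate test of a rise. Directions in the list stayed mixed, with 11 positive and 9 negative. In this fit Hmgcs1 differed by -0.25, Idi1 by -0.27 and Lss by -0.41, none of which passed. Leaving out any other single animal brought none of the 20 past the threshold.

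**Figure D3:**
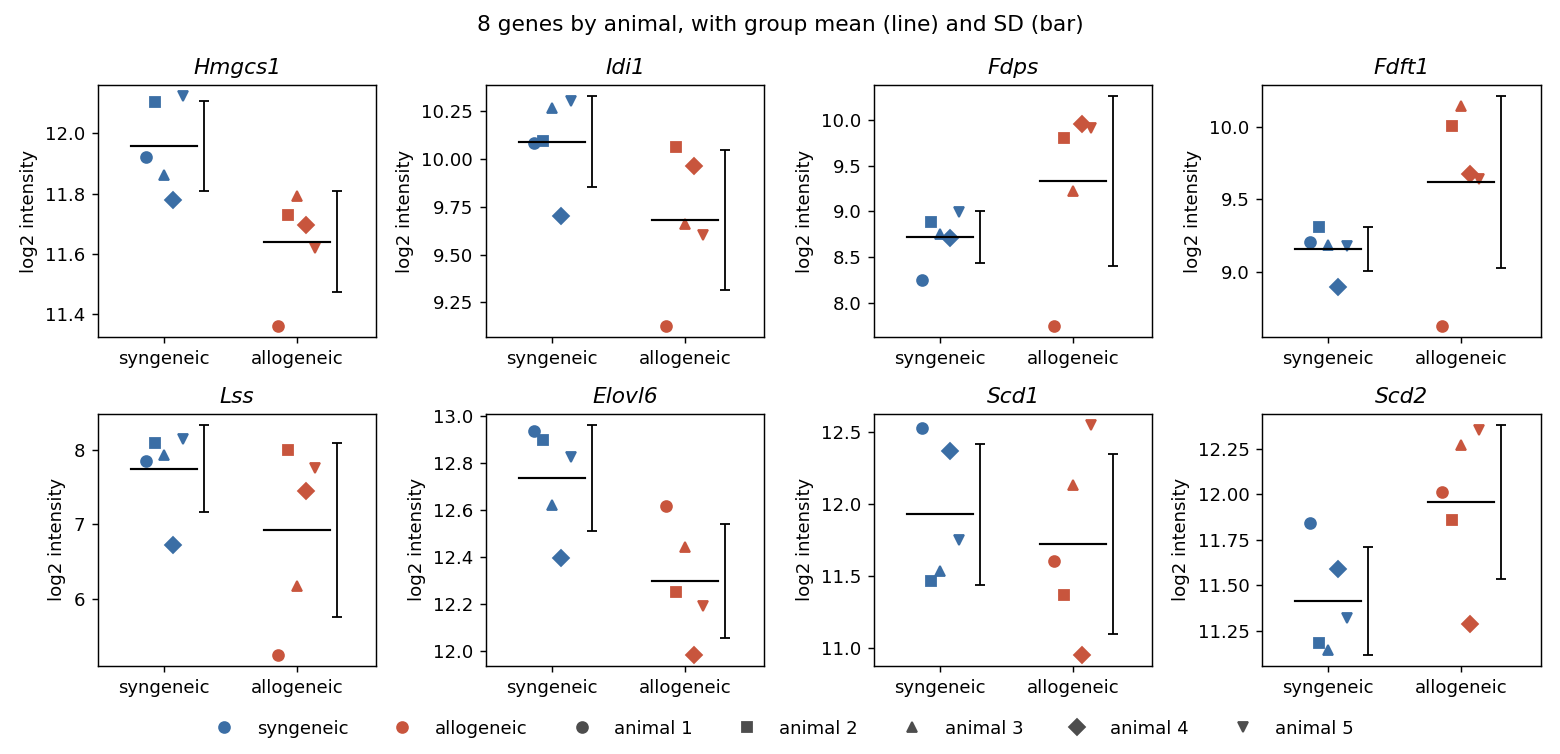
Log2 intensity (y axis, a separate scale per gene) of 8 genes, chosen after their values were seen, in the 5 syngeneic (blue) and 5 allogeneic (red) animals, with the group mean as a horizontal line and the SD as a bar to the side. Allogeneic animal 1 (red circle) is the lowest allogeneic point for Hmgcs1, Idi1, Fdps, Fdft1 and Lss, and allogeneic animal 4 (red diamond) is the lowest for Elovl6, Scd1 and Scd2.

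The fatty acid genes did not move as a block either, with 2 positive and 6 negative differences and a median of -0.06. Elovl6, which lengthens saturated fatty acids beyond palmitate (chromosome 3, 129532386 to 129638495), read 12.94, 12.90, 12.62, 12.39 and 12.83 in syngeneic and 12.62, 12.25, 12.44, 11.98 and 12.19 in allogeneic animals. Of the allogeneic animals, 3 were below every syngeneic value and 2 were inside the syngeneic range. The difference was -0.44 ± 0.16 (SE, interval -0.79 to -0.09, adjusted p = 0.211), and the other Elovl6 probe sets gave -0.27 and -0.94.

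Scd2, a desaturase that makes monounsaturated fatty acids (chromosome 19, 44293676 to 44306864), had the opposite sign. It read 11.84, 11.18, 11.15, 11.59 and 11.32 in syngeneic and 12.01, 11.86, 12.27, 11.29 and 12.35 in allogeneic animals. All but allogeneic animal 4 were above the syngeneic range, and the difference was 0.54 ± 0.22 (SE, interval 0.04 to 1.04, adjusted p = 0.261). Another Scd2 probe set read 8.41 to 9.12 in syngeneic and 9.27 to 10.12 in allogeneic animals without overlap. Its difference of 0.78 had an adjusted p of 0.125, the lowest of the 64 probe sets of the list. The remaining Scd2 probe set was also above the limit on all 10 arrays, but there the groups overlapped. It read 5.72 to 6.67 in syngeneic and 5.55 to 8.07 in allogeneic animals, a difference of 0.57 (adjusted p = 0.549). How many of the 64 probe sets lacked overlap was not counted.

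Scd1, the closest relative of Scd2 among the members, was spread widely in both groups. It read 12.53, 11.46, 11.53, 12.37 and 11.75 in syngeneic and 11.60, 11.37, 12.13, 10.95 and 12.55 in allogeneic animals. The ranges overlapped almost wholly, with a difference of -0.21 and an interval of -0.94 to 0.53.

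Of the remaining fatty acid genes 0 passed, and Acly and Elovl5 had the narrowest intervals of the 28 genes. Acly, which makes cytosolic acetyl-CoA for both pathways, averaged 13.27 in each group with SDs of 0.08 and 0.11, and its interval was -0.23 to 0.21. Acaca, the acetyl-CoA carboxylase, differed by -0.08 (interval -0.41 to 0.25), and Fasn, the fatty acid synthase, by -0.08 (interval -0.59 to 0.43). Elovl5, which lengthens polyunsaturated fatty acids, differed by -0.03 (interval -0.24 to 0.17). Srebf1 averaged 9.92 ± 0.26 in syngeneic and 10.03 ± 0.57 in allogeneic animals (SD, n = 5 each), a difference of 0.11 (adjusted p = 0.869).

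The animals that stood out for fatty acid genes were not those that stood out for sterol genes. The median of the 8 genes was 0.30, -0.04, -0.09, -0.04 and -0.01 in syngeneic and 0.01, -0.07, 0.09, -0.54 and 0.07 in allogeneic animals. Allogeneic animal 4 was lowest of its group in 7 of the 8 genes (87.5%), against 18.0% of the 10455 genes above the limit on all arrays. Syngeneic animal 1 was highest of its group in 7 of 8 (87.5%), against 20.1% of them. Leaving out any single animal brought 0 of the 8 past the threshold.

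Spread was larger in the allogeneic group for 26 of the 28 genes, 19 of 20 sterol and 7 of 8 fatty acid genes. Their median SD was 0.20 in syngeneic and 0.36 in allogeneic animals. The same held for 85.7% of the 10455 genes above the limit on all arrays, whose median SDs were 0.17 and 0.31, so the share among these lipid genes was close to that of all genes.

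The rest of the pathway also held no gene that passed. Of 8 further sterol and isoprenoid genes 0 were called, with a median difference of 0.16. Erg28, a scaffold of the sterol demethylation complex, was highest of them at 0.44 (adjusted p = 0.236). Msmo1, the sterol methyl oxidase, was 7.32 in allogeneic animal 1 against 7.91 to 9.24 elsewhere, and Tmem97, a sterol-responsive membrane protein, was 9.35 there against 9.81 to 10.94. Allogeneic animal 1 was lowest of its group in 4 of these 8 genes (50%), against 33.8% of the 10455 genes above the limit on all arrays, and highest in 2.

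Of 25 further fatty acid genes 0 were called (median 0.08). Thrsp, a lipogenic regulator, was 0.65 ± 0.17 (SE) higher (adjusted p = 0.125), running from 6.68 to 7.21 in syngeneic and from 7.33 to 8.08 in allogeneic animals. Tecr, the last reductase of fatty acid elongation, differed by 0.31 (adjusted p = 0.264). Mecr, a reductase of mitochondrial fatty acid synthesis, differed by 0.33 (adjusted p = 0.380).

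Of 7 genes of SREBP processing 0 were called (median 0.06). The proteases that cut SREBPs, Mbtps1 and Mbtps2, differed by -0.28 (adjusted p = 0.281) and -0.30 (adjusted p = 0.320). Fbxw7, which marks nuclear SREBPs for breakdown, differed by -0.33 (adjusted p = 0.290), and Insig2, the second anchor, by 0.06 (adjusted p = 0.878). Erlin2, of the same list, differed by 0.25 (adjusted p = 0.286). Of the 7 differences 4 were positive and 3 negative.

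Of 21 genes of sterol sensing, efflux and uptake 0 were called (median 0.06). Abcg1, a cholesterol exporter and target of the oxysterol-sensing LXR receptors, read 11.34, 10.77, 10.74, 11.21 and 10.80 in syngeneic and 11.75, 11.59, 11.93, 11.30 and 11.66 in allogeneic animals. The groups overlapped only between allogeneic animal 4 and syngeneic animal 1, and the difference was 0.67 ± 0.17 (SE, interval 0.30 to 1.05, adjusted p = 0.109). Vldlr, a lipoprotein receptor, differed by 1.77 ± 0.71 (SE, adjusted p = 0.248), but it was above the limit on 2 of 5 syngeneic arrays and its highest value, 9.50, came from allogeneic animal 3. Ch25h was above the limit on 0 of 10 arrays, that is, not well above background in either group, and no fold is given for it.

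**Figure D4:**
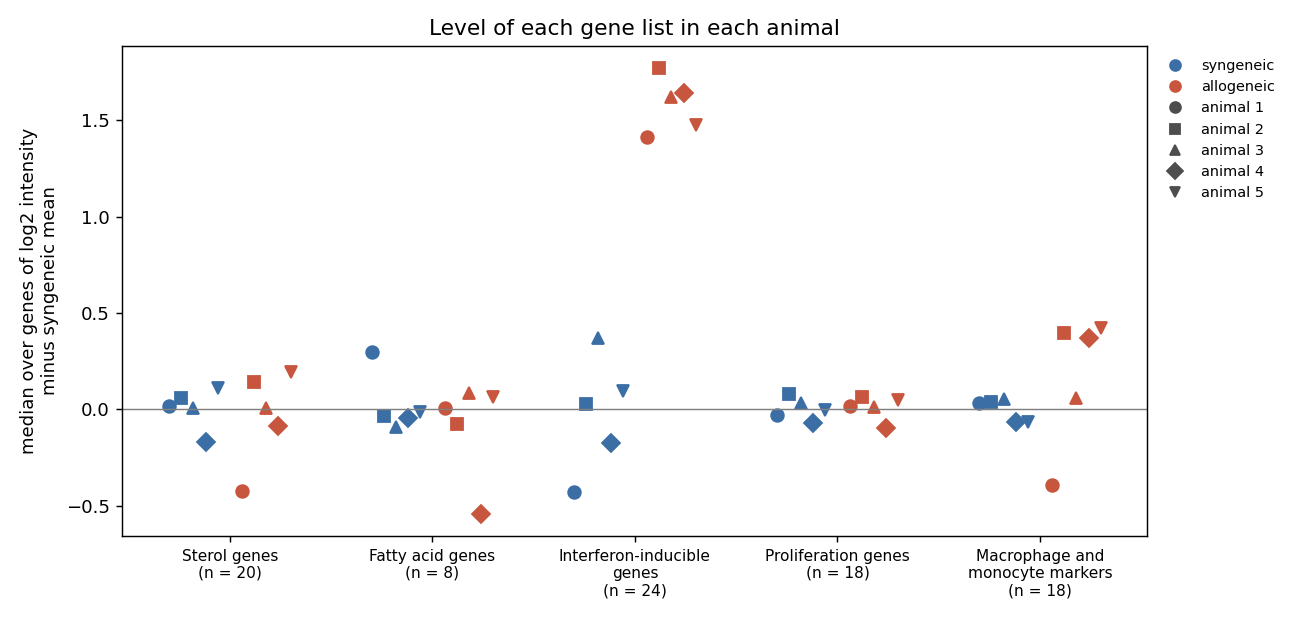
Median over the genes of 5 lists, in each animal, of log2 intensity minus the syngeneic mean (y axis). Blue points are the 5 syngeneic and red points the 5 allogeneic animals, with shapes for the animal's number and n the genes measured. The interferon list separates the groups, at -0.43 to 0.37 against 1.41 to 1.77, and the sterol, fatty acid and proliferation lists do not.

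The lipid genes stood in these groups beside a large interferon difference and no called proliferation gene. Of 24 measured interferon-inducible genes, a list drawn up with their rise in these samples known, 17 rose, where 0.506% of all genes were called higher, and their median difference was 1.55. Every allogeneic animal was high, with list medians of 1.41 to 1.77 against -0.43 to 0.37 in syngeneic animals. Allogeneic animal 1, low for sterol genes, had the lowest of these allogeneic medians, yet it was the lowest of its group in 3 of the 24 interferon genes and the highest in 9. Of 18 proliferation genes 0 were called (median 0.04), and their list median lay between -0.10 and 0.08 in all 10 animals. The lowest difference among them was that of Mki67, -0.56 (interval -1.02 to -0.10, adjusted p = 0.220). The highest was that of Tyms, 0.25 (interval -0.06 to 0.55, adjusted p = 0.390).

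The sorted cells carried the markers of B-lymphoid progenitors in both groups. Vpreb1 and Igll1, of the surrogate light chain, and Cd79a and Cd79b, of the receptor complex, lay between 12.91 and 13.73 in every animal. The 11 measured genes of that list had a median difference of 0.02 and 0 were called, while Pax5 was low (difference -1.21, adjusted p = 0.281) and above the limit on 4 syngeneic and 2 allogeneic arrays. Marker lists of some other cells differed in list median between the groups, although many of their markers lay near or below the background limit. The list median was 0.27 to 0.70 in allogeneic against -0.21 to 0.22 in syngeneic animals for natural killer cells, 0.28 to 0.76 against -0.23 to 0.07 for dendritic cells and 0.22 to 0.42 against -0.05 to 0.11 for stroma and endothelium. At least 1 array was above the limit for 5 of 9, 6 of 8 and 9 of 15 of these markers, and all 10 arrays were for 3, 4 and 2 of them. The stroma and endothelium markers had a median level of 4.01 in syngeneic and 3.98 in allogeneic animals, under the limit of every array. Of all 3 lists 1 gene was called, Bst2, which is also on the interferon list (1.37, adjusted p = 0.00965), and Gzma, a granzyme, was 1.06 higher (adjusted p = 0.0995). All 8 mature B and plasma cell markers had negative differences, with 0 called. The part of these markers in the lipid gene values was not tested. Arrays had 11224 to 13094 genes over the background limit. The ratio of the 3′ to the 5′ Gapdh probe set, a measure of RNA quality, was 1.46 to 1.56 in syngeneic and 1.38 to 1.59 in allogeneic animals.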

How the data were processed

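Total RNA from sorted leukaemia cells was amplified to biotinylated cDNA with NuGEN kits, per the labels' protocols, and read on 1 Affymetrix array for each of 10 animals. The authors' deposited table gives a linear intensity for 45101 probe sets. The sources used here do not say how the authors summarised or scaled it. Deposited values, 0.74 to 22385, were log2 transformed and then quantile normalized, since the arrays differed in their lower quartile. Probe sets were named with the platform's annotation, and 34741 symbols were brought up to date through their Entrez identifiers (34945 had 1 symbol, 932 several, 9160 none and 64 were controls).

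Groups were compared with limma 3.58.1 in R 4.3.3 (lmFit and eBayes) over 18193 genes, with no filter on low values. All adjusted p-values are limma's, Benjamini-Hochberg adjusted over all genes. The background limit used 27 bacterial control probe sets and lay between 4.50 and 5.32 on the log2 scale. The genes, the other lists and the settings were chosen with earlier results of these data known. Named were all 29 genes, up to 4 members of each other pathway list with the smallest p, Ch25h, Insig2 and leading markers. Msmo1, Tmem97, C1qb, Lyz2, Mpeg1, Bst2, Gzma, Mki67 and Tyms were named after their values were seen. Scripts were tested on simulated data. The alternatives were other scalings, a pseudocount of 16, other choices of probe set, low-value filters, eBayes settings, array weights, a block for animal number and leaving out animals.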

Additional observations from a re-analysis of the deposited data

Results flagged for a closer look

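In 8 of 96 sets of 5 animals examined, 1 animal stood far from the other 4 (Dixon's test), where chance gives about 1 in 20. Among the sterol genes, Mvk was 8.18 in syngeneic animal 5 against 7.30 to 7.55 in the others, Sqle was 8.85 in syngeneic animal 4 against 9.19 to 9.29, and Lss was 6.73 in that same animal against 7.84 to 8.14. Srebf1 was 10.37 in syngeneic animal 1 against 9.75 to 9.87. The median of the 8 fatty acid genes was 0.30 in syngeneic animal 1 against -0.09 to -0.01, and -0.54 in allogeneic animal 4 against -0.07 to 0.09. Outside the list, Thrsp was 6.68 in syngeneic animal 2 against 7.05 to 7.21, and Mecr was 9.07 in allogeneic animal 1 against 9.87 to 10.01.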

How the results depend on the processing

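Over 22 alternatives the count of fatty acid genes called was 0 in each, and that of sterol genes was 0 to 2 when animals were left out singly (the 2 when allogeneic animal 1 was), and 1 with allogeneic animals 1, 3 and 4 removed together (Fdps, 1.15, adjusted p = 0.0448, 649 genes called in all). The cause was not tested. The median difference ran from -0.05 to 0.15 for sterol and from -0.12 to 0.02 for fatty acid genes. The labels do not say whether animal numbers pair the groups. Correlations of same-numbered deviations ran from -0.21 to 0.35 over 10455 genes. Differently numbered animals were not set beside them, so these values cannot decide it. With the number as a block 0 sterol and 0 fatty acid genes and 14 genes in all were called. Genes called in all ran from 14 to 720.

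Of 616 values 577 kept sign and side of the threshold, 3 newly passed and 36, in 16 genes, changed sign, none of those passing (lowest adjusted p 0.407). Changed signs were -0.0035 (no quantile normalization) and -0.038 (median centring) for Mvk; -0.20, -0.10 and 0.053 for Cyp51, Sc5d and Stard4 (mean over probe sets); and -0.058 for Srebf1 (array weights). With the probe set of largest SD they were -0.25 for Fdft1, 0.47 for Hsd17b7 and -0.35 for Sc5d, each from a probe set above the background limit on 0 arrays. That choice also gave -0.46 for Cyp51, 0.48 for Stard4, 0.038 for Acaca and 0.0022 for Elovl5. Without allogeneic animals 1, 3 and 4 the changed signs were -0.56 for Mvk, 0.17 for Sqle, 0.13 for Lss, 0.038 for Acaca and 0.029 for Scd1. Leaving out single animals moved the difference across 0 in 8 genes, with ranges of -0.17 to 0.11 for Dhcr7, -0.040 to 0.024 for Acly, -0.24 to 0.056 for Fasn, -0.17 to 0.36 for Mvk, -0.014 to 0.25 for Cyp51, -0.90 to 0.026 for Tm7sf2, -0.15 to 0.018 for Acaca and -0.079 to 0.29 for Srebf1.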
